A study of Homo sapiens and Mus musculus with 74 samples.

Results

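The change in translation efficiency (TE) on loss of Rpl41 was followed in mouse brain in 12 libraries, 3 Ribo-seq and 3 RNA-seq libraries each from wild-type (WT) and Rpl41 knockout (KO) mice. They are 12 of the 74 samples of the series, which also holds kidney and human cell line libraries. The mice were males of 10 weeks on the C57BL/6J background, the WT animals were Rpl41+/+ and the KO animals were Rpl41-/- in every tissue, made by CRISPR-Cas9 in zygotes. Neither genotype received a treatment. The labels do not say whether a Ribo-seq and an RNA-seq library with the same replicate number came from 1 brain, so p-values measure the spread between these libraries. One transcript was taken for each of 22484 genes with a coding sequence, the transcript with the longest protein in the GENCODE M21 annotation, and 13943 genes had enough counts in both assays to be tested.

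Rpl41 (eL41) is the smallest protein of the cytosolic ribosome and sits at the interface of the ribosomal subunits, close to the decoding centre. Ribo-seq counts the short mRNA pieces that ribosomes protect from nuclease (footprints, RPF), and RNA-seq counts the mRNA itself. TE is the footprint level divided by the RNA level of a gene, so a higher TE can come from more footprints, from less RNA, or from both. In this design the TE change is the assay by genotype term of the model, which is the log2 change of footprints minus the log2 change of RNA, always given as KO minus WT. TE is relative within a library, since each library is scaled to its own total, and a change shared by all mRNAs cannot be seen.

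The targeted gene was read first. Rpl41 had 70, 37 and 76 footprints in the WT libraries against 2, 4 and 0 in the KO libraries. Its RNA counts were 11532, 12199 and 8981 in WT and 7, 12 and 6 in KO. Both assays therefore separated the genotypes, and the footprint change of -5.36 ± 0.39 (log2, SE) and the RNA change of -10.43 ± 0.25 passed the edgeR quasi-likelihood test with Benjamini-Hochberg adjustment (adjusted p = 0.000133 and 1.05e-07). The fitted TE change of Rpl41 was 5.00 ± 0.98, and it rests on 6 footprints in all 3 KO libraries. The transcript chosen for Rpl41 codes for 46 amino acids, while the other 3 transcripts of the gene in the table code for the protein of 25 amino acids.

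No gene passed the TE test over all 13943 genes at an adjusted p of 0.05, so the share called was 0%. The smallest adjusted p was 0.439. At an unadjusted p under 0.05, 672 genes (4.82% of those tested) had a higher TE in KO and 558 genes (4%) a lower TE, together 8.82%. These 2 groups, called higher-TE and lower-TE genes here, are described below as groups of unadjusted results. Likewise, the footprint test called 2 genes (0.0143%), Rpl41 and Efemp2, and the RNA test called Rpl41 alone (0.00717%). Scaling by library size alone, in place of the trimmed mean of M-values (TMM), changed the split to 419 higher-TE and 854 lower-TE genes. DESeq2 called 6 genes, the edgeR likelihood ratio test 15 and limma voom with library weights 199. In the stricter reading, a gene counts when KO lies beyond WT whichever Ribo-seq library is paired with whichever RNA-seq library of its genotype. By that reading 216 genes (1.55%) lay higher and 225 genes (1.61%) lower.

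In both directions the footprint change was more often the larger part. Among the 672 higher-TE genes the footprint change was larger in size than the RNA change in 532 (79.2%, 95% exact binomial interval 75.9 to 82.2), and among the 558 lower-TE genes in 463 (83.0%, 79.6 to 86.0). These intervals cover counting over genes only, and genes of 1 library set are not independent. Over all genes other than Rpl41 the footprint change also had the wider spread, with a standard deviation of 0.28 against 0.21 for RNA. The same share over all genes tested was not computed, so these shares cannot be read as particular to the 2 groups. The median higher-TE gene had a footprint change of 0.36 and an RNA change of -0.15, and the median lower-TE gene had -0.36 and 0.13. Footprints and RNA thus moved apart in most of these genes, with opposite signs in 563 (83.8%) of the higher-TE and 454 (81.4%) of the lower-TE genes. This is partly fixed by the choice, because a gene whose footprints and RNA move together keeps its TE.

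Read against the tests within each assay, footprints stood out again. Of the higher-TE genes, 438 had an unadjusted footprint p under 0.05 and 115 an unadjusted RNA p under 0.05, 19 had both and 138 had neither. Over all genes tested, 7.8% had higher and 6.73% lower footprints at that threshold, and 2.75% had higher and 4.48% lower RNA. Of the lower-TE genes, 342 had the footprint p, 75 the RNA p, 3 both and 144 neither. Over all genes other than Rpl41, 67.8% of the variance of the TE change came from footprints and 32.2% from RNA. In the 2617 genes with a mean over 500 footprints, where counting error is smallest, the split was 57.4% and 42.6%. The footprint share depended on single libraries. Without KO RNA-seq replicate 1 it was 42.4% for higher-TE and 57.2% for lower-TE genes, so that RNA was the larger part in most of the higher-TE genes, and without KO Ribo-seq replicate 1 it reached 87.4% for higher-TE genes.

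**Figure D1:**
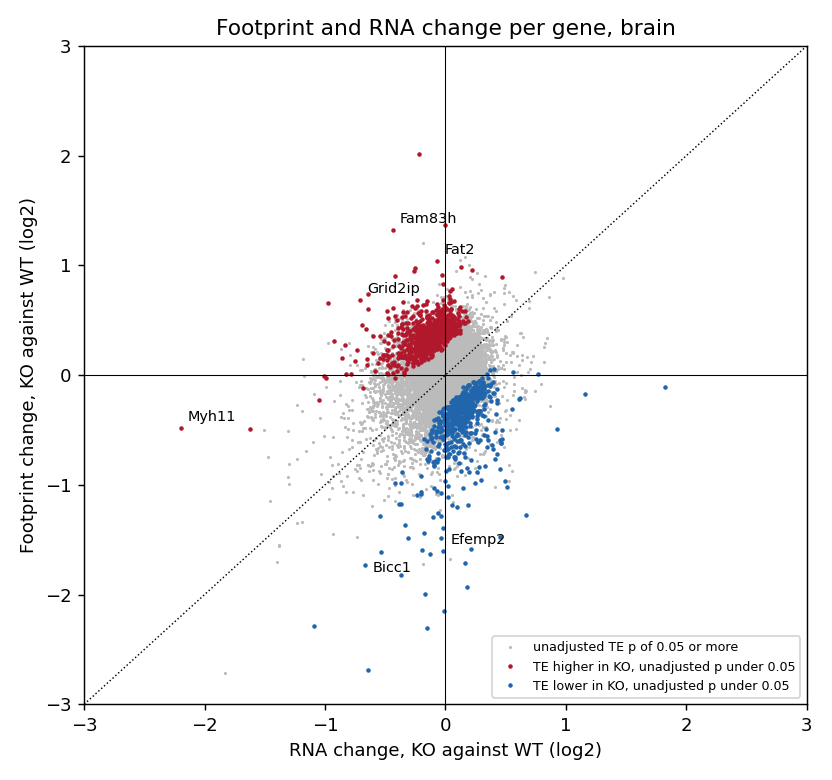
Footprint change (vertical, log2 KO against WT) against RNA change (horizontal, log2) for each tested gene, where red and blue points are the 672 higher-TE and 558 lower-TE genes and the dotted line marks equal changes. The coloured points spread mostly up and down, along the footprint axis; Rpl41 is left out, and Gh, Pomc and Birc7 lie outside the axes.

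Higher TE with more footprints and little difference in RNA was the first pattern among single genes. Inpp5f codes for a phosphoinositide phosphatase of endocytic membranes. Its footprints were 61.6, 56.3 and 61.9 CPM (counts scaled to a common library total, with TMM within an assay) in WT and 89.8, 87.9 and 90.7 in KO, so the genotypes did not overlap. Its RNA lay at 156, 161 and 142 CPM in WT and 160, 148 and 144 in KO, so the genotypes overlapped. The TE change of Inpp5f was 0.59 ± 0.12 (log2, SE, edgeR adjusted p = 0.439).

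Fat2, a giant cadherin of cerebellar granule cells, had the same form, with 161, 159 and 280 footprint CPM in WT and 370, 443 and 430 in KO. Its RNA stayed between 71.7 and 94.3 CPM across all 6 libraries, and its TE change was 1.11 ± 0.26. Markers of the cerebellum, 11 genes that include Fat2 and none of them at 0, summed to 874 to 1185 footprint CPM in WT and 1199 to 1343 in KO, against 1189 to 1294 RNA CPM in WT and 1237 to 1279 in KO. Fat2 is itself part of these sums. Relative to the assay mean, the median footprint level of the 11 markers was -0.14, -0.13 and 0.07 in WT. In KO it was -0.02, 0.16 and 0.09, so by this median the genotypes overlapped. The part of cerebellar content in the result of Fat2 was not tested. Without WT Ribo-seq replicate 3, which holds the highest WT value, Fat2 passed the TE test (adjusted p = 0.025).

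In a second group of higher-TE genes the footprints were up and the RNA was down. Grid2ip, a scaffold of the glutamate receptor at parallel fibre synapses, had 19.8, 13.2 and 22.1 footprint CPM in WT and 24.4, 36.1 and 30.5 in KO. Its RNA was 4.47, 4.26 and 6.21 CPM in WT and 3.72, 2.57 and 2.80 in KO. Neither assay overlapped between the genotypes, and the TE change was 1.39 ± 0.30. Fam83h (1.76 ± 0.39), the complement-like protease inhibitor A2m (0.87 ± 0.20), the phosphodiesterase Gpcpd1 (0.58 ± 0.13) and the zinc finger gene Zfp850 (0.91 ± 0.19) had the same arrangement, KO footprints all above and KO RNA all below WT. Baiap3, which acts in dense-core vesicle trafficking, had 58.6, 63.2 and 68.5 footprint CPM in WT and 80.5, 107 and 103 in KO, but its RNA overlapped, and its TE change was 0.86 ± 0.19.

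In Myh11 and Ahnak the RNA change was larger than the footprint change. Myh11, the heavy chain of smooth muscle myosin, had 9.63, 7.94 and 7.36 RNA CPM in WT and 2.72, 1.25 and 1.32 in KO, an RNA change of -2.20 ± 0.29. Its footprints were also lower, at 21.9, 14.9 and 19.9 CPM in WT and 14.7, 14.9 and 11.8 in KO, a change of -0.48 ± 0.17. Its TE change of 1.71 ± 0.35 was thus the remainder of an RNA change larger than the footprint change. Ahnak, a giant scaffold under the plasma membrane, had 33.5, 31.2 and 42.3 RNA CPM in WT and 28.5, 19.8 and 21.9 in KO, with 137, 139 and 174 footprint CPM in WT and 212, 191 and 174 in KO. Its TE change was 0.95 ± 0.21.

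Among the lower-TE genes with the smallest p, Efemp2, Bicc1 and Mmp24 differed mainly in footprints. Efemp2 (fibulin-4), a protein of elastic fibres, had 29.6, 46.9 and 27.9 footprint CPM in WT and 10.4, 9.58 and 13.3 in KO. Its RNA was 15.3, 18.9 and 14.9 CPM in WT and 14.4, 16.1 and 18.0 in KO. The footprint change of -1.61 ± 0.21 passed the edgeR test (adjusted p = 0.0376), while the RNA change was -0.02 ± 0.13 and the TE change -1.59 ± 0.27 (adjusted p = 0.439). The footprint call of Efemp2 was lost without WT Ribo-seq replicate 2 (adjusted p = 0.0788), without KO Ribo-seq replicate 2 (0.184) or without KO Ribo-seq replicate 3 (0.0622), and with counts summed over all transcripts of the gene, where the change was -0.67 (0.257).

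Bicc1, an RNA-binding protein, had 14.8, 27.7 and 13.3 footprint CPM in WT and 6.45, 5.62 and 5.00 in KO, with RNA between 8.73 and 12.0 CPM in all 6 libraries. Its TE change was -1.50 ± 0.33. Mmp24, a membrane metalloprotease of neurons, had 43.8, 51.2 and 50.2 footprint CPM in WT and 34.9, 33.8 and 30.5 in KO, with RNA between 100 and 123 CPM. Its TE change was -0.65 ± 0.14. In both genes the footprint values of the genotypes did not overlap and the RNA values did.

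The other lower-TE genes with the smallest p were Ccdc177 (-0.87 ± 0.20), the store-operated calcium entry regulator Tmem110 (-0.72 ± 0.17), the phosphatase Ctdspl (-0.74 ± 0.18), the kinetochore protein Pmf1 (-1.12 ± 0.28), the neuronal GTPase Rac3 (-0.57 ± 0.15), Tm2d2 (-0.49 ± 0.13) and the neuropeptide precursor Cartpt (-0.90 ± 0.22). All 7 had KO footprints below every WT library, and in 6 of them the RNA change was above 0. Efemp2 and Ctdspl were the genes of this set with RNA changes below 0 besides Bicc1. Over all genes tested, 1386 (9.94%) had KO footprints below every WT library and 1392 (9.98%) above, and for RNA these shares were 6.71% and 6.29%.

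**Figure D2:**
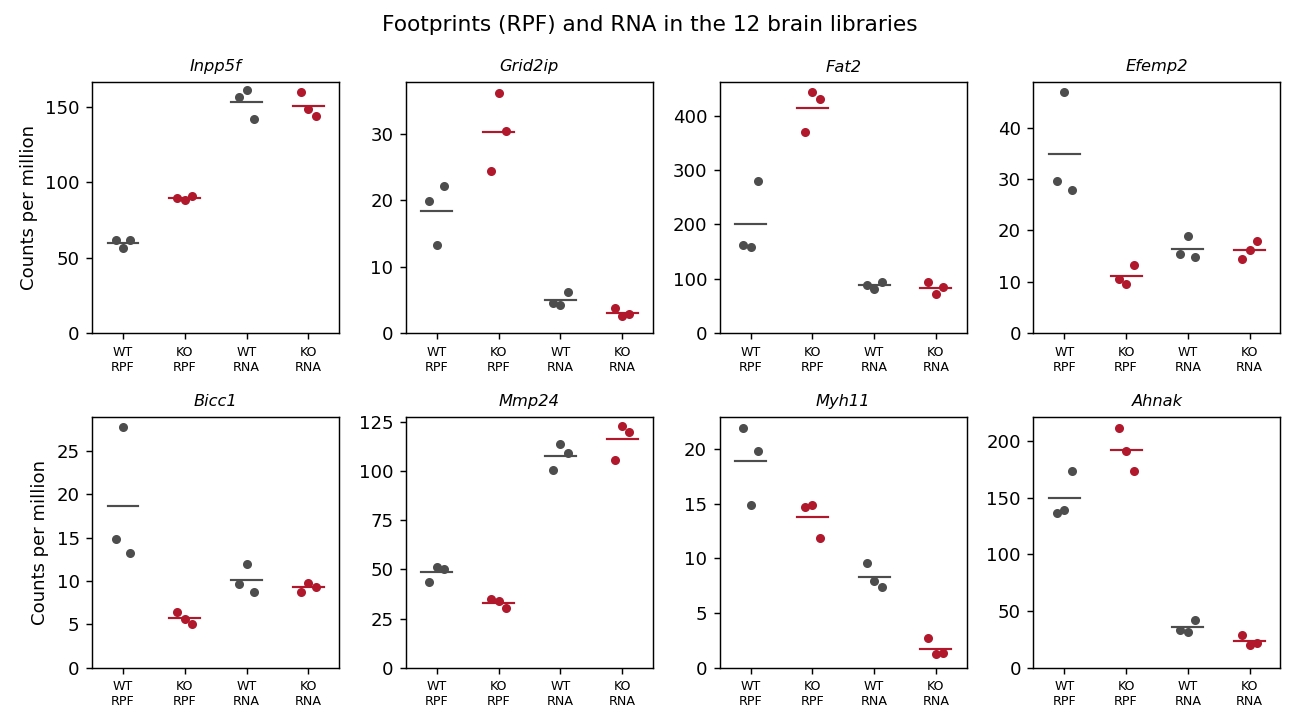
Scaled counts (CPM) of footprints (RPF) and RNA in each WT (grey) and KO (red) brain library for 8 genes; points are the 3 libraries of a group in the order of replicate number and lines are their means. Inpp5f, Grid2ip and Fat2 separate upward in RPF, Efemp2, Bicc1 and Mmp24 separate downward in RPF, and Myh11 separates in RNA, from 7.36 or more in WT to 2.72 or less in KO.

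Sequence around the start codon was compared next, because initiation is the usual place of TE control. The stretches from 12 bases before the start codon to 9 after it are shown for the 3 genes with the smallest p in each direction other than Rpl41 itself. They come from the GENCODE M21 transcripts and are read 5′ to 3′ with the start codon in capitals, after the place of the whole gene in GRCm38.
Myh11 (chr16:14194535-14291372, minus strand): ccaccagacatcATGgcgcagaaa
Inpp5f (chr7:128611328-128696425, plus strand): cgtggggccggcATGgagctcttt
Zfp850 (chr7:27984854-28014115, minus strand): acctgaagaagaATGgccagctct
Efemp2 (chr19:5473954-5482517, plus strand): cagatagagggaATGgggggtgct
Bicc1 (chr10:70922832-71159700, minus strand): gccgctcgcaccATGgcctcgcag
Mmp24 (chr2:155775342-155818366, plus strand): cccgccgccgggATGccgaggagc
A purine 3 bases before the start codon together with G right after it, the favourable context for initiation, was present in 46.1% of higher-TE, 45.1% of lower-TE and 44.9% of all genes with a long enough leader. A transcript start of C followed by 4 pyrimidines, the form of the terminal oligopyrimidine motif, was present in 2.95%, 2.80% and 2.27%. Leader length was also alike, with Spearman's rho of 0.014 with TE.

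The property most visibly shared by the genes of each direction was protein length, which the choice of genes did not use. The median higher-TE gene codes for 1004.5 amino acids and the median lower-TE gene for 267.5. The tested genes were ranked by protein length and split into 10 bins of nearly equal size. In the shortest bin (28 to 178 amino acids) the median TE change was -0.26, and 2 genes had a higher TE and 144 a lower TE. In the longest bin (1204 to 35213 amino acids) the median was 0.25, and 256 genes had a higher TE and 6 a lower TE. The 8 bins between lay in the order of their length, from -0.18 to 0.15, with no exception.

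Footprints and RNA both took part in this order, in opposite directions. The median footprint change went from -0.20 in the shortest to 0.12 in the longest bin, and the median RNA change from 0.06 to -0.14. In the short genes footprints were the larger part, and in the longest bin RNA was. Across the 13943 genes, Spearman's rho with protein length was 0.505 for TE, 0.352 for footprints and -0.327 for RNA, as a description over genes that share the same 12 libraries. Leaving out single libraries, or both libraries of a genotype and number, the median TE of the longest length bin minus that of all genes stayed between 0.17 and 0.37, and that of the shortest length bin between -0.37 and -0.14.

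The libraries of 1 genotype differed from each other in the same property. In each library the level of the longest length bin relative to the shortest was taken as a log2 difference from the mean of the assay. For footprints it was 0.09, -0.46 and -0.14 in the WT libraries and -0.05, 0.30 and 0.25 in the KO libraries. WT Ribo-seq replicate 1 thus lay above KO Ribo-seq replicate 1, and the genotypes overlapped. For RNA it was 0.08, -0.23 and 0.46 in WT and 0.15, -0.33 and -0.14 in KO, again with overlap. The difference between WT libraries of 1 assay was therefore as large as the difference between the genotypes. The part of this spread between libraries in the TE order by length was not tested. The counts of higher-TE and lower-TE genes moved with single replicates. Without both libraries of KO replicate 2 there were 230 higher-TE and 213 lower-TE genes, without those of KO replicate 3 there were 297 and 200, and without those of KO replicate 1 there were 1468 and 1118.

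**Figure D3:**
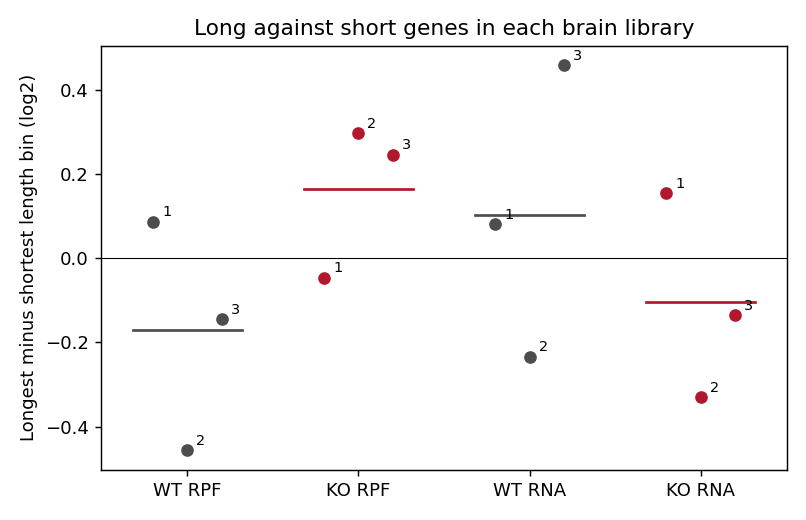
Level of the longest length bin of genes minus that of the shortest (log2, relative to the mean of the assay) in each brain library, with the replicate number beside each point and the group mean as a line. KO RPF libraries 2 and 3, at 0.30 and 0.25, lie above the WT RPF libraries, while KO RPF library 1 at -0.05 lies among them.

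Gene lists were read by their counts and medians. For reference, over all genes tested the median TE change was -0.01. The 12 giant ubiquitin ligases, enzymes that mark proteins for degradation, held the highest median, 0.51, with 10 of 12 members higher-TE against 4.82% of all genes. Their median footprint change was 0.31 and their median RNA change -0.21, and the longest length bin, to which the list belongs by its median length of 4582 amino acids, had a median TE of 0.25. Birc6 had a TE change of 0.78 ± 0.28 and Herc1 of 0.59 ± 0.23.

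By library the ligases did not separate cleanly. Their median footprint level relative to the assay mean was 0.08, -0.35 and -0.19 in WT and -0.08, 0.31 and 0.27 in KO. Their RNA level was 0.14, -0.14 and 0.29 in WT and 0.00, -0.22 and -0.11 in KO. Birc6, an inhibitor of apoptosis, had footprints of 328, 251 and 268 CPM in WT and 287, 413 and 406 in KO, so KO replicate 1 lay within WT and the other 2 above it. Without both libraries of KO replicate 2 the list median was 0.38 with 0 of 12 members higher-TE, and without those of WT replicate 3 it was 0.39 with 1 of 12.

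The 10 bridge-like lipid transfer proteins, which carry lipids between organelles at contact sites, had a median of 0.47 with 5 higher-TE members, of which Vps13a (0.66 ± 0.20) and Vps13b (0.58 ± 0.18) had the smallest p. The footprints of Vps13a were 166, 147 and 144 CPM in WT and 177, 216 and 232 in KO, with no overlap. The 9 giant cadherins had a median of 0.45 with 1 higher-TE member, Fat2. The 16 dynein, kinesin and myosin motors had a median of 0.28, every member above 0 and 3 higher-TE: Dync1h1, the heavy chain of cytoplasmic dynein (0.60 ± 0.23), and the non-muscle myosins Myh9 (0.35 ± 0.14) and Myh10 (0.39 ± 0.18). Without both libraries of KO replicate 2 the median of the lipid transfer proteins was 0.30 with 1 higher-TE member, and no motor was higher-TE. No motor was higher-TE without both libraries of KO replicate 3 either. The lipid transfer, cadherin and motor lists belong by length to the longest length bin, with a median TE of 0.25 and 18.4% higher-TE genes. The motor list, with 18.8% higher-TE members, lay near that share.

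Nuclear pore proteins, with 28 members, had a median TE of 0.22 and 6 higher-TE members, and here nearly all of the median came from footprints (0.20, against -0.03 for RNA). Nup205 had 54.9, 31.2 and 37.7 footprint CPM in WT and 55.1, 67.2 and 61.8 in KO, with a TE change of 0.76 ± 0.22. Nup133 had a TE change of 0.72 ± 0.22, Nup107 0.58 ± 0.19 and Ranbp2 0.75 ± 0.26. Once both libraries of KO replicate 2 were left out, 2 members were higher-TE. In the fit to all libraries the share of the list was 21.4%. The length bin of 866 to 1203 amino acids, to which the list belongs by length, had 10.3% and a median TE of 0.15.

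In lists of structural proteins RNA was the larger part. Collagens, laminins and other basement membrane genes (53 tested of 60) had a median TE of 0.35, made of a footprint change of -0.04 and an RNA change of -0.37. In this list 9 members (17.0%) were higher-TE and 1 lower-TE. The longest length bin, to which the list belongs by length, held a near share of 18.4% higher-TE genes and a median TE of 0.25. Lower RNA at an unadjusted p under 0.05 was seen in 20 members, against 4.48% of all genes. Col4a6 (1.62 ± 0.37), Lamb1 (0.60 ± 0.18) and Lama2 (0.59 ± 0.18) were higher, and Col26a1 lower (-1.01 ± 0.32). The 11 endothelial markers, none of them at 0, had median changes of -0.65 for footprints and -0.71 for RNA. Their median TE change was 0.10, and none was higher-TE or lower-TE. They summed to 343 to 612 footprint CPM in WT and 286 to 390 in KO, with overlap. Their RNA summed to 180 to 258 CPM in WT and 117 to 185 in KO, also with overlap. In bulk tissue fewer cells of a type and less RNA per cell cannot be told apart. The part of endothelial content in the result was not tested. The number of higher-TE members of the basement membrane list ranged from 5 without WT Ribo-seq replicate 2 to 18 without WT RNA-seq replicate 2.

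The 15 giant cytoskeletal linkers had a median TE of 0.28 with a footprint change of -0.03 and an RNA change of -0.38, and 7 of the 15 had a lower RNA at an unadjusted p under 0.05. Ank2, which anchors membrane proteins in axons, illustrates the spread: its RNA was 149, 140 and 248 CPM in WT and 198, 103 and 95.7 in KO, with overlap, and its TE change was 0.59 ± 0.36. Ahnak was the only higher-TE member (6.67%). The longest length bin, to which the list belongs by length, had 18.4% higher-TE genes and a median TE of 0.25.

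Lower TE was seen in lists of small proteins. Neuropeptide precursors and granins, the secreted cargo of dense-core vesicles, had the lowest median, -0.38, with 8 of 23 members lower-TE against 4% of all genes. By length the list belongs to the shortest length bin, which had a median TE of -0.26 and 10.3% lower-TE genes. RNA was the larger part here, with a median change of 0.23 against -0.05 for footprints. At an unadjusted p under 0.05, 8 members were higher in RNA, against 2.75% of all genes. Sst had 201, 205 and 177 RNA CPM in WT and 215, 292 and 259 in KO, while its footprints overlapped at 207, 259 and 244 CPM in WT and 236, 192 and 203 in KO. Its TE change was -0.56 ± 0.18. Vip (-0.51 ± 0.15) and Pcsk1n, an inhibitor of the prohormone convertase (-0.52 ± 0.17), were also lower-TE. In Cartpt both parts took part, since its footprints were 35.9, 32.9 and 30.2 CPM in WT and 27.3, 20.5 and 20.2 in KO.

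One WT replicate stood apart in secretory markers. The 9 hypothalamus and pituitary markers summed to 3184 footprint CPM and 2364 RNA CPM in the libraries of WT replicate 3, against 135 to 249 and 60.1 to 89.9 in the other 10 libraries. Without both libraries of WT replicate 3 the neuropeptide median was -0.29 with 6 lower-TE members, and without those of KO replicate 2 it was -0.26 with 3.

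Subunits of the respiratory chain that nuclear genes code for had lower TE in both lists. The 37 complex I subunits had a median of -0.33 with 8 lower-TE members (21.6%), and the 40 subunits of complexes III, IV and ATP synthase had -0.32 with 4 (10.0%). The shortest length bin, to which both lists belong by length, had a median TE of -0.26 and 10.3% lower-TE genes. Footprints were the larger part in both lists (-0.21 each, with RNA at 0.14 and 0.10). Ndufa8 had 99.8, 128 and 96.4 footprint CPM in WT and 86.2, 84.8 and 85.9 in KO, and a TE change of -0.44 ± 0.17. Ndufb10 (-0.46 ± 0.18) and Ndufb7 (-0.41 ± 0.17) were alike, as were the complex IV subunits Cox6a2 (-0.94 ± 0.32), Cox6a1 (-0.52 ± 0.23), Cox7c (-0.55 ± 0.25) and Cox8a (-0.54 ± 0.25).

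Of the 37 complex I subunits, 3 had a TE change above 0 and 1 of them was higher-TE, Ndufs1, the longest subunit with 727 amino acids. Ndufs1 had 263, 280 and 279 footprint CPM in WT and 336, 372 and 367 in KO, no overlap, and a TE change of 0.44 ± 0.14. Its RNA was 108, 101 and 120 CPM in WT and 117, 99.2 and 102 in KO. The 13 genes of the mitochondrial genome, which mitochondrial ribosomes translate, had a median TE of 0.15, and of -0.01 without both libraries of WT replicate 2, with no member at an unadjusted p under 0.05 in the fit to all libraries. Leaving out both libraries of KO replicate 2, no complex I subunit and 1 subunit of the other complexes was lower-TE, and without those of KO replicate 1 the numbers were 24 and 24.

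The 46 large ribosomal subunit proteins other than Rpl41 had a median of -0.15 with Rpl29 as the only lower-TE member (-0.63 ± 0.24), and the 32 small subunit proteins had -0.16 with none. Both lists sat above the shortest length bin of all genes, -0.26, to which they belong by length. The 78 mitochondrial ribosomal proteins had -0.24 with 9 lower-TE members, led by Mrpl12 (-0.54 ± 0.16), whose footprints were 44.6, 46.9 and 41.5 CPM in WT and 35.3, 35.3 and 30.7 in KO. The length bin of 179 to 254 amino acids, to which the mitochondrial ribosomal proteins belong by length, had a median of -0.18 and 8.36% lower-TE genes. The share of the list itself was 11.5%. With both libraries of KO replicate 2 left out, the median of the large subunit proteins was 0.02 and 1 mitochondrial ribosomal protein was lower-TE.

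Of 53 initiation factors 3 were higher-TE, a share of 5.66% that is near the 4.82% of all genes, and 0 without WT Ribo-seq replicate 3. Of these, Eif3a and Eif3l code for subunits of the eIF3 scaffold (0.38 ± 0.17 and 0.39 ± 0.17), and Eif2s3y for the Y-linked form of the eIF2 gamma subunit. Eif3a had 198, 189 and 161 footprint CPM in WT and 235, 265 and 269 in KO. Eif1, the small factor that guards start codon choice, had 119, 128 and 110 in WT and 90.0, 83.6 and 88.8 in KO, with a TE change of -0.38 ± 0.18 that missed even the unadjusted threshold. Of 15 elongation, termination and recycling factors 3 were higher-TE (20.0% of the list), the release factor Gspt1 (0.33 ± 0.14), the translocation factor Eef2 (0.31 ± 0.14) and its kinase Eef2k (0.49 ± 0.23). None of the 15 was higher-TE without WT Ribo-seq replicate 3, nor without both libraries of WT replicate 3, KO replicate 2 or KO replicate 3.

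Factors that act on collided ribosomes had a median of 0.22, with 2 of 20 higher-TE (10.0%, against 4.82% of all genes and 7.13% of their length bin). These were Ltn1, the ubiquitin ligase of stalled 60S subunits (0.53 ± 0.16), and Gigyf2, which represses initiation on such mRNAs (0.45 ± 0.20). The median change of the list was -0.19 for RNA and 0.05 for footprints. Among 21 genes with upstream open reading frames or stress response roles, 4 were higher-TE, namely Shmt2, Ifrd1, Ibtk and Asns. That was 19.0% of the list, against 4.82% of all genes and 3.67% of its length bin. Ifrd1, a known case of translation set by an upstream open reading frame, was higher in both assays, with 21.9, 24.3 and 23.5 footprint CPM in WT and 36.5, 45.4 and 46.5 in KO, and 35.8, 39.6 and 39.4 RNA CPM in WT and 51.6, 57.3 and 50.1 in KO. Its TE change was 0.42 ± 0.16. With libraries left out, the number of higher-TE members ranged from 1 (without both libraries of KO replicate 3) to 7 in this list, and from 1 (without WT Ribo-seq replicate 3) to 7 among the collision factors.

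The 11 polyamine genes gave members of both directions, 3 higher-TE (27.3%) and 1 lower-TE (9.09%), against 4.82% and 4% of all genes. Amd1, which makes decarboxylated S-adenosylmethionine (0.58 ± 0.21), its near-identical copy Amd2 (0.57 ± 0.21), with which it shares reads, and the antizyme inhibitor Azin1 (0.37 ± 0.15) were higher-TE. Smox, the spermine oxidase, was lower-TE (-0.53 ± 0.16) with both assays below WT: its footprints were 26.0, 22.6 and 28.1 CPM in WT and 13.8, 14.1 and 14.1 in KO. Among 15 Sm and U5 spliceosome proteins the large U5 components Prpf8 (0.66 ± 0.24), Snrnp200 (0.56 ± 0.22) and Eftud2 (0.51 ± 0.18) were higher-TE and the small Snrpd3 (-0.36 ± 0.16) lower-TE. These were 20.0% and 6.67% of the list, which had a median TE of -0.08. For comparison, the length bins of 866 to 1203 and of 1204 to 35213 amino acids held 10.3% and 18.4% higher-TE genes. The number of higher-TE spliceosome proteins was 0 without both libraries of WT replicate 3 and 0 without those of KO replicate 2. For the polyamine genes it was 0 without both libraries of WT replicate 1.

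Lists of neuronal receptors, channels and synapse proteins lay nearer the middle than the neuropeptide list, with medians from -0.09 to 0.16. The 5 neuron markers all lay below 0, with a median of -0.16. Ionotropic glutamate receptors (18 tested, median 0.11), GABA-A receptors (14, 0.02) and voltage-gated potassium channels (28, 0.00) held no higher-TE and no lower-TE gene. Of 28 sodium and calcium channel genes 1 was lower-TE, the calcium channel beta subunit Cacnb3 (-0.36 ± 0.12), and none was higher-TE, although the list belongs to the longest length bin by length. Of 27 synaptic scaffold and active zone genes 1 was higher-TE, Unc13a (0.70 ± 0.29), and of 25 synaptic vesicle genes 1 was lower-TE, Syp (-0.39 ± 0.16). Zinc finger genes, the most numerous list, had 17 higher-TE and 2 lower-TE members of 350 tested, shares of 4.86% and 0.571% against 4.82% and 4% of all genes. With libraries left out, the higher-TE members ranged from 10 without both libraries of KO replicate 3 to 52 without those of KO replicate 1. The 15 small membrane and translocon proteins had a median of -0.33 with 2 lower-TE members, Dad1 (-0.41 ± 0.18) and Sec61b (-0.54 ± 0.24). That share of 13.3% stood against 10.3% in the shortest length bin, to which the list belongs by length. The other 14 lists, among them proteasome subunits (-0.05), tubulins (-0.07), immediate early genes (-0.15), selenoproteins (-0.17), vacuolar ATPase subunits (-0.17) and iron genes (0.25), held at most 1 higher-TE or lower-TE member each. Of the 12 microglial markers 5 were lower-TE with a median of -0.34, led by the complement gene C1qc (-0.56 ± 0.15). The lower-TE share was 4% of all genes and 5.25% of the bin of 255 to 330 amino acids, to which these markers belong by length. The 12 markers summed to 814 to 1035 footprint CPM in WT and 859 to 989 in KO, with overlap. Their RNA summed to 435 to 467 CPM in WT and 476 to 502 in KO, with no overlap. A higher RNA at an unadjusted p under 0.05 was seen in 3 of them, against 2.75% of all genes. The part of cell content in these values was not tested. The number of lower-TE markers was 1 without WT Ribo-seq replicate 3, and 2 without both libraries of KO replicate 2 or of KO replicate 3.

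**Figure D4:**
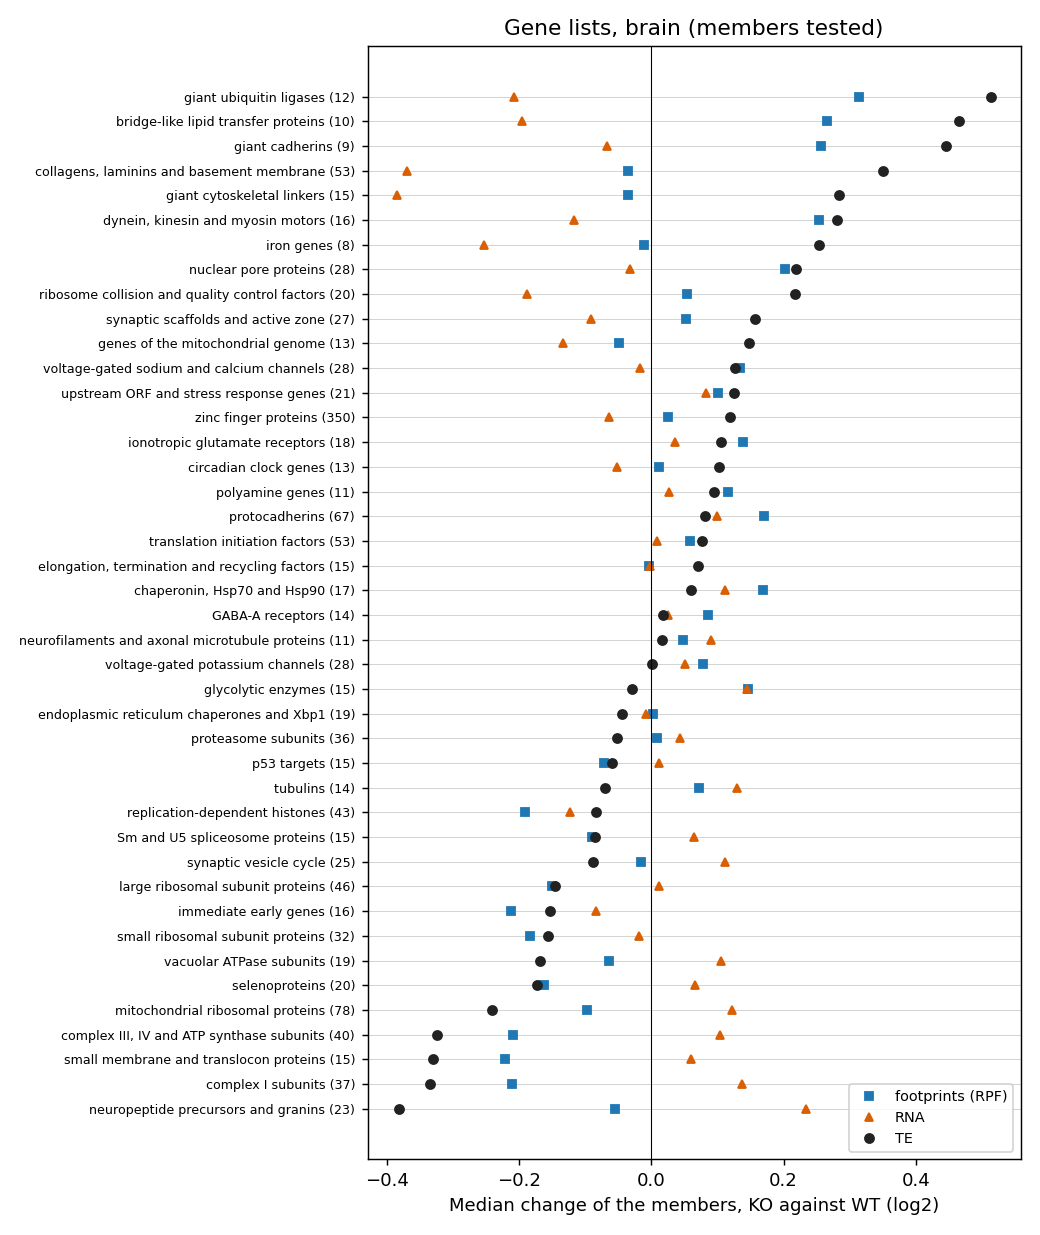
Median TE (circles), footprint (squares) and RNA (triangles) change of each gene list, log2 KO against WT, with the number of members tested in brackets and lists ordered by median TE. Giant ubiquitin ligases lie highest at 0.51 and neuropeptide precursors lowest at -0.38, and the RNA triangles of the outer lists lie on the side of zero opposite to TE.

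Codon content varied with TE more than start context did. After removal of the part shared with protein length, 29 of 30 sense codons ending in A or T had a rank correlation above 0 between their share of a gene's codons and its TE change, CCT being the exception. Of 31 codons ending in G or C, 28 had one below 0, and the exceptions were TTG, ATG and AAG. AAA for lysine (0.19) and GAA for glutamate (0.18) were highest, and CTG for leucine and CCC for proline (-0.19 and -0.18) lowest. The share of G or C at the third codon position had a partial rank correlation of -0.214 with footprints, 0.062 with RNA and -0.232 with TE. With genes split into 4 bins by protein length and 4 by third-position GC share, the bin poorest in GC had the highest median TE at each length, for example -0.13 against -0.25 among the shortest genes and 0.25 against 0.07 among the longest. By library, the rank correlation of the third-position GC share with the footprint level was 0.23, 0.09 and 0.08 in WT and 0.03, -0.18 and -0.27 in KO, which do not overlap. All correlations here are descriptions across genes.

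The brain values were set beside those of the kidney libraries of the same design. In 11586 genes tested in both tissues the tissue by assay by genotype term called no gene (0%) at an adjusted p of 0.05, with the smallest adjusted p at 0.0525 for Mmp24 and Dkk3. At an unadjusted p under 0.05, 446 genes (3.85%) lay higher and 570 (4.92%) lower in brain than in kidney. DESeq2 called 12 genes. Without kidney KO RNA-seq replicate 1 the count was 237. Mmp24 had a TE change of -0.65 in brain and -2.92 in kidney, a difference of 2.25 ± 0.39, where kidney footprints were 56, 38 and 40 counts in WT and 2, 21 and 20 in KO. These counts are not scaled, and the RNA part of the kidney TE change is not given here. Dkk3, a secreted relative of Wnt inhibitors, had -0.25 in brain and 1.18 in kidney.

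Length ordered the kidney values too. Over the shared genes the median TE change went from -0.26 in the shortest to 0.26 in the longest length bin in brain and from -0.46 to 0.37 in kidney. Giant ubiquitin ligases had a median of 0.51 in brain and 0.60 in kidney, and complex I subunits -0.34 and -0.73. Of 31 protocadherins tested in both tissues, whose medians were 0.07 in brain and 0.95 in kidney, 21 lay lower in brain at an unadjusted p under 0.05. Protocadherin transcripts of 1 cluster share their 3′ exons and hence reads, so that these 21 are not separate observations.

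Depth and purity of the brain libraries were as follows. Over the genes tested the Ribo-seq libraries held 2373240 to 9165967 counts and the RNA-seq libraries 27266668 to 39007842, and WT Ribo-seq replicate 2 was the shallowest. Neuronal, oligodendrocyte and astrocyte markers were present in every library and kidney markers summed to 20.4 to 26.0 footprint CPM and 8.03 to 9.82 RNA CPM. The 6 blood markers summed to 2512, 7272 and 2638 footprint CPM in WT and 1464, 1743 and 1370 in KO. Their RNA summed to 2591, 7615 and 2396 CPM in WT and 1250, 2285 and 1522 in KO. Each KO library thus lay below WT in both assays, and WT replicate 2 was highest. The 5 olfactory bulb markers were also lower in KO, at 45.7 to 85.8 footprint CPM in WT and 28.2 to 43.3 in KO, and 39.1 to 71.7 and 28.4 to 38.0 RNA CPM. The part of blood or dissection in the TE changes was not tested. After removal of both libraries of WT replicate 2 there were 778 higher-TE and 547 lower-TE genes, and without those of WT replicate 3 there were 479 and 491.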

How the data were processed

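Ribo-seq and RNA-seq of WT and Rpl41 KO mouse brain (3 libraries per group) were analysed from 1 table of counts per transcript. Per the study's methods and the submitters' processing notes, the authors trimmed reads with cutadapt, removed rRNA reads and aligned with STAR (mm10, GRCm38.p6), allowed multimapping reads, and counted with featureCounts of Subread; versions are not given in the sources used here. The deposited counts are whole numbers, not normalized. A read can be counted in several transcripts of a gene, so isoforms are not independent. A second table, of the human cell line, was not used, nor were 28 columns of per-sample values in it.

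Transcripts were matched to GENCODE M21 by identifier. Counts were filtered with filterByExpr within each assay, scaled with TMM within each assay, and tested with edgeR 4.0.16 (quasi-likelihood F test; R 4.3.3) with Benjamini-Hochberg adjustment at 0.05; SE is the log2 change divided by the square root of F. DESeq2 1.42.0, the edgeR likelihood ratio test and limma 3.58.1 (voom) were alternatives, as were other filters, scalings, gene sums, replicate blocks and libraries left out; leaving out both assays of 1 genotype and number was chosen after seeing the data. On simulated counts for the brain TE test (13943 genes), 100 of 100 genes changed by 2 on the log2 scale and 85% of those changed by 1 were called. The changed genes were drawn from those with a mean of at least 50 footprints, while 3079 genes other than Rpl41 lay under that. The simulated libraries were drawn independently, without the differences by protein length between real libraries. These shares therefore cannot be read as the power of the test on the real libraries.

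Named genes were Rpl41, the 10 genes with the smallest TE p in each direction with a mean of at least 20 counts in each assay, up to 4 members with the smallest p in each list described, and genes called between tissues. Dkk3, and the genes outside the axes of the scatter plot, were named after their values were seen. Members and lists were chosen with earlier results of these data known. Intervals cover counting error only. Some genes that this rule selects are not reported here.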

Additional observations from a re-analysis of the deposited data

How the results depend on the processing

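Counts of calls depended on the test. Rpl41 and the 10 genes with the smallest TE p in each direction kept their direction in every alternative fit that gave 1 value per gene and held them. The TE of the other named genes was not followed through all of these fits. Among the lists, the large ribosomal subunit proteins (0.02 without both libraries of KO replicate 2) and the mitochondrial genome (-0.01 without both of WT replicate 2) crossed 0 in 1 alternative each, and proteasome subunits, tubulins and immediate early genes in 2 each. Below 0 in the main fit, p53 targets lay above 0 in 1 of 28 alternatives, endoplasmic reticulum chaperones and glycolytic enzymes in 5 each, and replication-dependent histones in 10. Above 0 in the main fit, circadian clock and chaperonin genes stayed so in 27 of 28, and neurofilaments in 17. Several marker lists also crossed 0. GABA-A receptors and voltage-gated potassium channels lay near 0 on either side. For TE (0 called), DESeq2 called 6 genes, the edgeR likelihood ratio test 15 and limma voom 199. For footprints (2 called) the counts were 139, 152 and 231, with 6 under no filter, 0 with at least 10 counts in every library, 1 with counts summed per gene and 34 with all transcripts tested. For RNA (1 called) they were 35, 33 and 507, with 3 under no filter, 0 with at least 10 counts in every library and 12 with all transcripts. Higher-TE and lower-TE genes numbered 1637 and 1452 by limma voom, 419 and 854 under library size alone, and 1686 and 2273 transcripts with all transcripts. The footprint share was 64.9% and 70.0% by limma voom and 58.8% and 73.4% with all transcripts. The median TE of the shortest length bin minus that of all genes was -0.02 with all transcripts. Leaving out libraries gave 0 to 1 TE calls, 1 to 72 footprint calls, 1 to 4 RNA calls, 230 to 1468 higher-TE and 200 to 1118 lower-TE genes, footprint shares of 42.4% to 87.4% (higher) and 57.2% to 91.5% (lower), and 0 to 237 brain against kidney calls, where DESeq2 called 12. The causes were not tested.

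With the replicate number as a block shared by genotypes and assays, TE had 0 calls, footprints had 12, and 664 genes were higher-TE and 580 lower-TE. With the block within genotype, TE had 0 calls, with 843 and 783 genes, and the footprint share of higher-TE genes was 74.3%. Deviations of same-numbered Ribo-seq and RNA-seq libraries correlated at 0.206, 0.325 and 0.279 in WT and 0.023, 0.034 and 0.063 in KO, and each library correlated best with its own number, which is a hint from the data. Since the KO values are under 0.1 and no label ties the numbers to animals, the numbers were not used as a pairing. The shallowest Ribo-seq library, at 2373240 counts, limits the precision for genes with few footprints.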
